A study of Mus musculus with 8 samples.

Results

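*Mt1* and *Gdf15* were examined in primary colonic epithelial cells (IECs) from mice with and without epithelial *Efhd2*. Both were chosen by name because earlier results of these data placed them among the largest increases in *Efhd2*-deficient IECs without DSS. They are 2 of the 309 genes in the day 0 table. The values that chose them are their normalized counts in that comparison, so the difference between the genotypes is given here as a description, with no test. The study comprised 8 samples in 4 groups of 2 libraries. On day 0, *Efhd2*f/f Vil1cre/+ mice (labelled *Efhd2*-deficient) and *Efhd2*f/f mice (labelled Wildtype) had received no dextran sodium sulfate (DSS), a polymer that injures the colonic epithelium when given in drinking water. On day 7 the same genotypes were sampled after DSS administration. The study used mice of both sexes aged 8 to 10 weeks in its animal experiments. The sources used here do not give the sex of the mice behind each library. All groups carried *Efhd2* with loxP sites around exon 2, so the control mice are floxed mice without Cre. Cre was driven by the villin promoter, which is active throughout the intestinal epithelium and not in immune or stromal cells. The sources used here do not say whether the libraries of a group came from separate mice, so the spread between them may be technical.

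Metallothioneins are small cytoplasmic proteins that bind zinc, copper and cadmium through their cysteines. The transcription factor MTF-1 senses free zinc and switches on *Mt1* and its neighbour *Mt2* through metal response elements (MREs). Glucocorticoids and inflammatory cytokines also raise metallothionein transcription. GDF15 is a secreted protein of the TGF-β superfamily. Its gene is switched on by p53 and by the integrated stress response, and the circulating protein acts through the receptor GFRAL with RET in the hindbrain to suppress food intake. Both genes are known for rising in stressed epithelial cells, by separate routes.

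*Mt1* (ENSMUSG00000031765) lies on the plus strand of chromosome 8 of GRCm38 (chr8:94179082-94180327). *Gdf15* (ENSMUSG00000038508) lies on the minus strand of the same chromosome (chr8:70629393-70632456). No other gene of GENCODE release M21 overlaps either of them. The nearest gene to *Mt1* is *Gm39228*, a long noncoding RNA gene 2962 bases after it. *Mt2* ends 5514 bases before *Mt1*. The coding sequence of *Mt1* is shown because it carries what defines the protein. Capitals mark the 20 cysteine codons among its 61 codons before the stop (32.8%), which supply the metal ligands.

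*Mt1* coding sequence, GENCODE M21, 186 bases: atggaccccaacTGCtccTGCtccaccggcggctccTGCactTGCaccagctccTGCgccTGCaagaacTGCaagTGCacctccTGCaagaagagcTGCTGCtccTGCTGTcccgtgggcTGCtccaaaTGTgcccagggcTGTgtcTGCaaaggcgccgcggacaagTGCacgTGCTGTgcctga

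The coding sequence of *Mt2* has the same length and is identical at 148 of 186 bases (79.6%). The longest run shared by an *Mt1* and an *Mt2* transcript was 20 bases. No stretch of 50 bases of any *Mt1* or *Gdf15* transcript occurred in the transcripts of another gene.

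The sequences before the starts are shown because both genes were higher together. They are RefSeq windows of build GRCm38.p6, from 250 to 8 bases before the annotated start, 243 bases each. Capitals mark MRE core matches (TGCACNC or TGCGCNC, either strand).

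*Mt1*, chr8:94178839-94179081, plus strand: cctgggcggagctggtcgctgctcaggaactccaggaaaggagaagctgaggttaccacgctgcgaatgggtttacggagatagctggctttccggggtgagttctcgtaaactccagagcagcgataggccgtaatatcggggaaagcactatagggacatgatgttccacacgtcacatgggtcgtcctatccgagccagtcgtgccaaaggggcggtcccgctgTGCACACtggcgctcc

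*Gdf15*, chr8:70632464-70632706, minus strand: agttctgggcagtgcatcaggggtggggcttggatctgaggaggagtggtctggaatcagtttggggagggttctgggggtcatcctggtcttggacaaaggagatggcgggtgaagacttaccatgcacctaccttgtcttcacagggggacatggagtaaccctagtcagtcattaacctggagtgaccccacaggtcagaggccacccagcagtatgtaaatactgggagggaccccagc

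The *Mt1* window held 1 MRE core, and 20.7% of the 32851 RefSeq windows of this length held at least 1. The count depended on the annotated start. GENCODE gives *Mt1* transcripts that begin at 94179211 and 94179241, and the same window placed before either of those starts held 5 MRE cores. These windows overlap and hold the same cores. Of the RefSeq windows, 0.0731% held that many or more. Those were placed at RefSeq starts only, whereas several starts were tried for *Mt1*, so the comparison is not like for like. The cores lay 48 to 169 bases before 94179241. They include 2 close pairs inside the first exon of the transcript that begins at 94179082, shown because they hold 4 of the 5 matches, with the cores in capitals.

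*Mt1*, chr8:94179091-94179115, plus strand: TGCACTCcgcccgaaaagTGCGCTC

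*Mt1*, chr8:94179173-94179193, plus strand, first core on the minus strand: GGGTGCAaacccttTGCGCCC

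The *Gdf15* window held no MRE core. Neither upstream window shown held the heat-shock element core (GAANNTTC or TTCNNGAA, in 12.4% of all windows), an AP-1 site (TGANTCA, 6.64%), a cyclic AMP response element (TGACGTCA, 1.48%), a C/EBP-ATF core (TGATGCAA, 0.779%), an antioxidant response element core (TGACNNNGC, 9.82%) or TATAAA (12.2%). The window before a second *Gdf15* start at 70632095 held 1 heat-shock element core. In the windows before the downstream GENCODE starts of *Mt1*, only MRE cores were counted. Whether those windows hold any of the other motifs was not tested. Matches describe letters in these windows and not binding.

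The unit of the deposited values is a normalized count, a read count per gene that the authors scaled between the libraries of one table. The table of each day lists only genes past the study's thresholds (absolute log2 fold change above 1 and adjusted p under 0.05), and the days were normalized separately. Over the 309 listed genes of day 0, normalized counts summed to between 149389 and 257002 per library, and the total depth is unknown. Library numbers are those of the table columns and do not pair the genotypes. *Efhd2* itself was at 556 and 713 normalized counts in the deficient libraries and at 2663 and 2686 in the controls, a log2 difference of -2.09 (SE 0.39). Each SE here is the moderated one of limma, which draws the variance of a gene toward a value shared by the listed genes. It can be larger or smaller than the gene's own libraries alone would give. None of 8 epithelial markers (*Epcam*, *Cdh1* and *Vil1* among them) was listed, so the labelled cell type could not be checked from these tables.

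*Mt1* was at 6128 normalized counts in deficient library 51 and 7681 in library 53, and at 1167 and 1322 in control libraries 50 and 52. Both deficient libraries were far above both controls, and libraries of a genotype lay close together. The means were 6904 ± 1099 in *Efhd2*f/f Vil1cre/+ IECs and 1245 ± 110 in *Efhd2*f/f IECs (SD, n = 2 each), a ratio of 5.55. On the scale of log2(normalized count + 1), the difference was 2.46 (SE 0.39). Across the 4 pairs of a deficient and a control library, the ratio ran from 4.63 to 6.58. Leaving out each library in turn kept the log2 difference between 2.30 and 2.63. It moved with the scaling, to 1.85 when each library was given the same sum of listed values and to 3.58 with a median ratio over the listed genes.

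*Gdf15* was at 466 and 528 normalized counts in deficient libraries 51 and 53, and at 36.1 and 133 in control libraries 50 and 52. The deficient libraries were close to each other, whereas control 52 was 3.68 times as high as control 50. The genotypes did not overlap. The means were 497 ± 43.4 and 84.4 ± 68.3 (SD, n = 2 each), a ratio of 5.89, and the log2 difference was 2.82 (SE 0.60). The controls of *Gdf15* lay farther apart than those of most listed genes, so this moderated SE understates the spread of its own libraries. The size of the difference rested on which control was used. The smallest ratio between a deficient and a control library was 3.51 and the largest 14.6. Without control library 50 the log2 difference was 1.89, and without control library 52 it was 3.74. Leaving out a deficient library gave 2.73 or 2.91. With equal sums the log2 difference was 2.21, and with the median ratio it was 3.92.

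**Figure D1:**
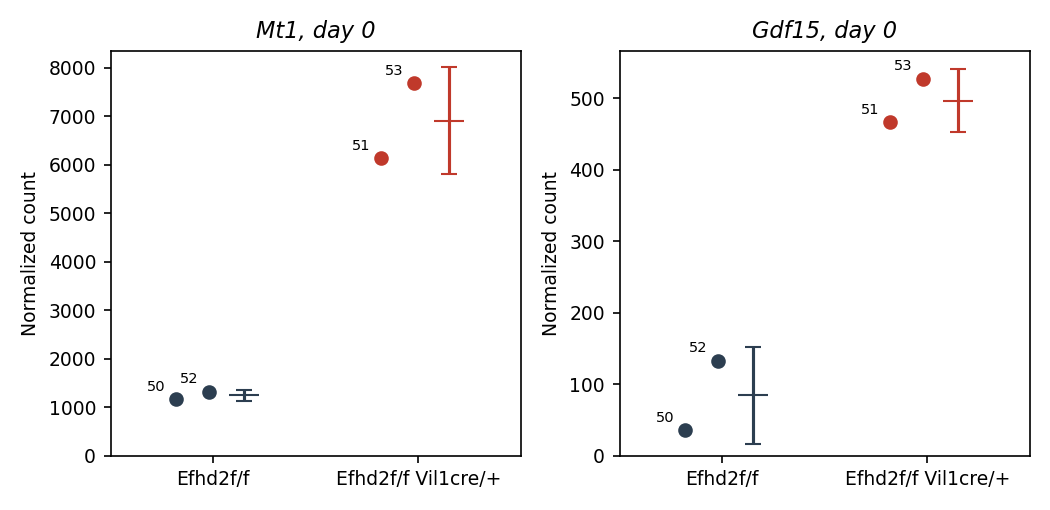
Normalized counts of *Mt1* (left) and *Gdf15* (right) in the 4 day 0 libraries, on linear axes from 0. Points are libraries with their numbers, and the bars to their right are the mean and SD of each genotype (n = 2). For both genes the *Efhd2*f/f Vil1cre/+ libraries lie above the *Efhd2*f/f libraries, and the *Gdf15* controls (36.1 and 133) lie farther apart in relative terms than the *Mt1* controls (1167 and 1322).

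In both genes the deficient libraries were above both controls. This was so for 32.0% of the 309 listed genes. As the table was selected on this comparison, nothing is read from this share. *Gdf15* ranked 11 and *Mt1* ranked 13 by log2 difference over all listed genes. Of 152 genes whose mean reached 100 normalized counts, they ranked 4 and 5, after *Hspa1a* (4.91), *Hspa1b* (4.68) and *Hsph1* (3.34), which encode chaperones of the Hsp70 and Hsp110 families. *Hspa1a* and *Hspa1b* are near-identical copies whose reads could have been split between them. The next gene was *B3gnt7*, a glycosyltransferase gene, at 2.27. Without library 50 *Gdf15* moved to rank 9, and without library 53 *Mt1* moved to rank 8.

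**Figure D2:**
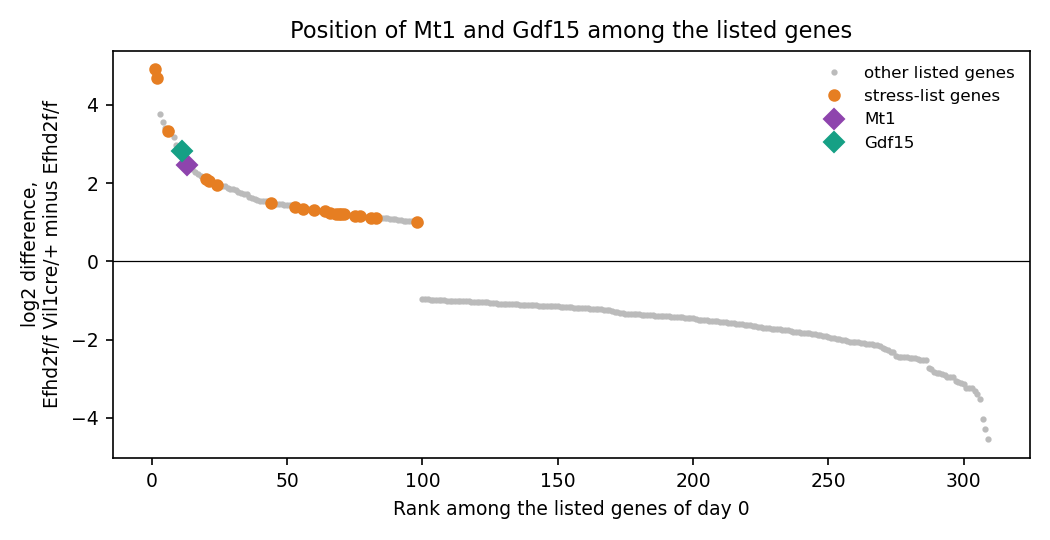
Log2 difference between the genotypes (vertical axis, *Efhd2*f/f Vil1cre/+ minus *Efhd2*f/f, on log2(normalized count + 1)) for the 309 genes listed on day 0, in order of rank (horizontal axis). Diamonds mark *Gdf15* (2.82, rank 11) and *Mt1* (2.46, rank 13), and orange points mark 21 other genes of the stress lists, all of them on the higher side.

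Per length, the genes stood at different levels. With the gene lengths of the table (1246 bases for *Mt1* and 1852 for *Gdf15*), *Mt1* was at 4918 and 6165 normalized counts per kilobase in the deficient libraries and 937 and 1061 in the controls. *Gdf15* was at 252 and 285 per kilobase in the deficient libraries and at 19.5 and 71.7 in the controls. The level of *Mt1* per kilobase was thus 19.5 and 21.6 times that of *Gdf15* in the deficient libraries 51 and 53. In the controls it was 48.0 times in library 50 and 14.8 times in library 52. Among the listed genes, *Mt1* ranked 5 and 3 by count per kilobase in the deficient libraries and 15 in both controls. *Gdf15* ranked 45 and 44 in the deficient libraries and 212 and 105 in the controls. The length of *Mt1* in the table is that of its whole locus, introns included, and an annotated transcript retains them. Its spliced transcript has 549 bases, so these values understate *Mt1* per kilobase of mature message.

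The gap between libraries of one genotype is given as a description, since the study's adjusted p, which chose the listed genes, weighs that spread. For *Gdf15*, control 52 was above control 50 by 1.85 on the log2 scale, against a median absolute gap of 0.52 over the 152 genes whose mean reached 100. Of those 152 genes, 3 had a larger absolute gap between the controls, each with library 50 above library 52. For *Mt1* the gap was 0.18, and 127 of the 152 had a larger one. Between the deficient libraries, 53 was above 51 by 0.33 for *Mt1* and by 0.18 for *Gdf15*, where the median absolute gap was 0.30. The *Mt1* controls were thus closer together than those of most listed genes, and the *Gdf15* controls farther apart.

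Genes known to respond to stress were taken from 9 lists of 174 genes besides *Mt1* and *Gdf15*. The lists were written with earlier results of these data known. Of the 174, 21 were listed on day 0. All 21 were higher in *Efhd2*f/f Vil1cre/+ IECs by limma (adjusted p under 0.05 over the listed genes and log2 difference above 1), against 30.4% of all listed genes called higher and 62.5% called lower. Their median log2 difference was 1.28, beside -1.17 over all 309 listed genes. None was called lower, also at an unadjusted p under 0.05 (limma), which was fixed once all 21 were higher. The remaining genes of the lists were not listed, and their levels were not analysed here. The table holds only genes the study selected on this comparison, so these calls are not independent evidence of a direction. The same holds for the adjusted p-values of single stress genes given below, which are not error rates over all genes. Limma called 0 of the 21 without library 50, 0 without library 51 and 0 without library 53 (13, 7 and 10 at an unadjusted p under 0.05), and 18 without library 52. When each library was given the same sum of listed values, 6 of the 21 were called, and over all listed genes 30 were called higher and 207 lower (94 and 193 with the values as deposited).

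The metal list held 16 genes besides *Mt1*, among them *Mt2*, *Mt3*, *Mt4*, the sensor gene *Mtf1* and the zinc exporter gene *Slc30a1*. None of the 16 was listed on day 0. *Mt1* was therefore the only metallothionein or zinc transporter gene of this list in the table, and the level of *Mt2*, its neighbour and usual partner, was not analysed here. The glucocorticoid list held 14 genes besides *Mt1* and had *Sgk1* listed, the gene of a kinase that raises sodium uptake. *Sgk1* was at 4124 and 4833 normalized counts in the deficient libraries and 1675 and 2023 in the controls, a log2 difference of 1.28 (adjusted p = 0.0207, limma). *Fkbp5*, *Tsc22d3* and *Per1*, other textbook glucocorticoid targets, were not listed.

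Of the receptor, family and ligand genes on the *Gdf15* list (*Gfral*, *Ret* and 17 others), none was listed on day 0. None of 19 other p53 targets, *Cdkn1a* and *Mdm2* among them, was listed. From the integrated stress response list, 2 of 24 genes besides *Gdf15* were listed and both were called higher. *Cebpb*, a transcription factor gene, was at 355 and 372 normalized counts in the deficient libraries and 128 and 164 in the controls (log2 difference 1.32, adjusted p = 0.0192, limma). *Ppp1r15a*, whose product GADD34 restores translation by directing dephosphorylation of eIF2α, was at 890 and 1084 against 293 and 612 (log2 difference 1.21, adjusted p = 0.0374, limma). *Atf4*, *Ddit3*, *Trib3* and *Asns*, which define this response, were not listed.

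Of 16 genes of the unfolded protein response in the endoplasmic reticulum, 2 were listed and called higher, both chaperone genes. *Hspa5* (BiP) had a log2 difference of 1.23 and *Hyou1* of 1.01. None of 19 oxidative stress genes, such as *Hmox1* and *Nqo1*, was listed on day 0. Of 26 immediate-early genes, 3 were listed and called higher. They were the AP-1 subunit gene *Fosl1* (log2 difference 1.34), *Gadd45g* (1.17) and the nuclear receptor gene *Nr4a1*, at 2564 ± 242 normalized counts in the deficient libraries and 1020 ± 665 in the controls (SD, n = 2 each). Heat-shock genes gave most of the calls, with 13 of 28 listed, all higher, and log2 differences from 1.11 to 4.91. Besides the Hsp70 and Hsp110 genes named above, the largest were *Hsp90aa1* (2.11) and *Dnaja1* (2.06), a cochaperone gene.

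**Figure D3:**
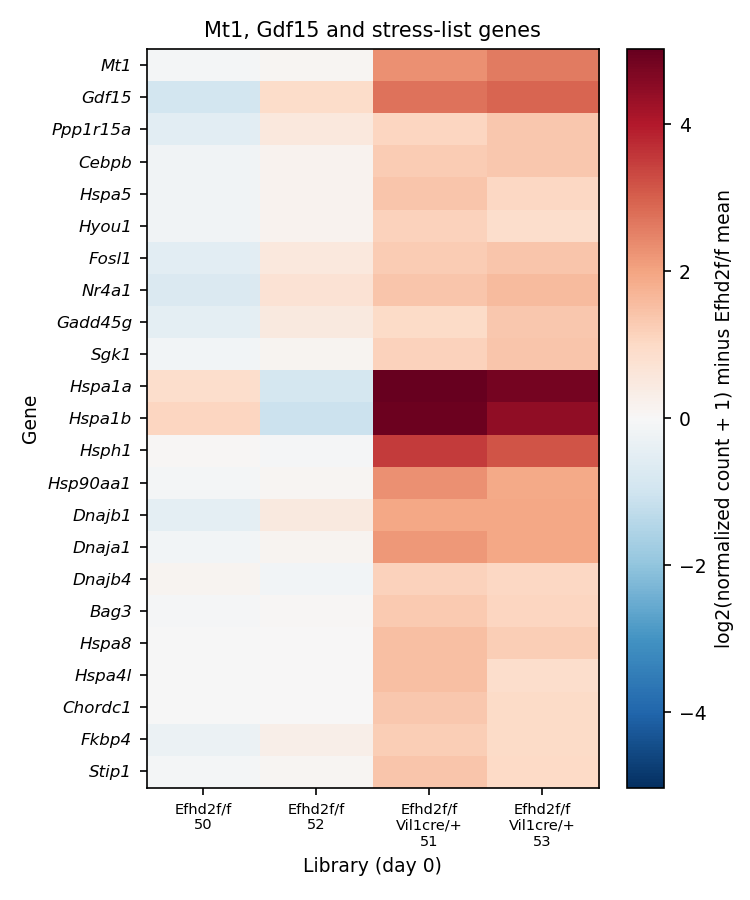
Log2(normalized count + 1) of *Mt1*, *Gdf15* and the 21 other listed stress genes in the 4 day 0 libraries, minus the mean of the *Efhd2*f/f libraries of each gene (colour scale in log2 units, red above and blue below). All 23 rows are redder in the *Efhd2*f/f Vil1cre/+ libraries, *Gdf15* differs between controls 50 and 52 by 1.85, and the heat-shock rows at the bottom are paler in library 53 than in library 51.

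The order of the libraries within a genotype is a description of these 4 libraries. Between the deficient libraries, 53 was above 51 for *Mt1* and *Gdf15*, whereas 0 of the 13 heat-shock genes and 0 of the 2 endoplasmic reticulum genes were higher in 53. That contrast holds for the values as deposited and depends on the scaling. Listed values summed to 257002 in library 51 and 205066 in library 53. Much of that difference lay in the mitochondrially encoded *mt-Co2*, at 44079 in library 51 and 8861 in library 53, so it weighs on the equal-sums scaling. With equal sums the contrast would not hold for the heat-shock genes as a whole. Several of them would be higher in 53, such as *Dnajb1* (4414 and 4372), *Hspa1a* (4709 and 4018) and *Hspa8* (27983 and 23360). Others, *Hspa1b* and *Hsph1* among them, would stay lower in 53. *Hspa1b* stood at 13325 in library 51 and 9581 in library 53. The 6 remaining stress genes (*Cebpb*, *Ppp1r15a*, *Nr4a1*, *Fosl1*, *Gadd45g* and *Sgk1*) were higher in 53, as *Mt1* and *Gdf15* were. Over all listed genes, 57.0% were higher in 53. Between the controls, *Mt1*, *Gdf15* and all 8 stress genes outside the heat-shock list were higher in 52, as were 9 of the 13 heat-shock genes, against 35.3% of all listed genes. *Nr4a1* went from 550 in library 50 to 1490 in library 52. *Hspa1a* took the opposite order to *Gdf15*, with 269 in library 50 and 76.7 in library 52.

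**Figure D4:**
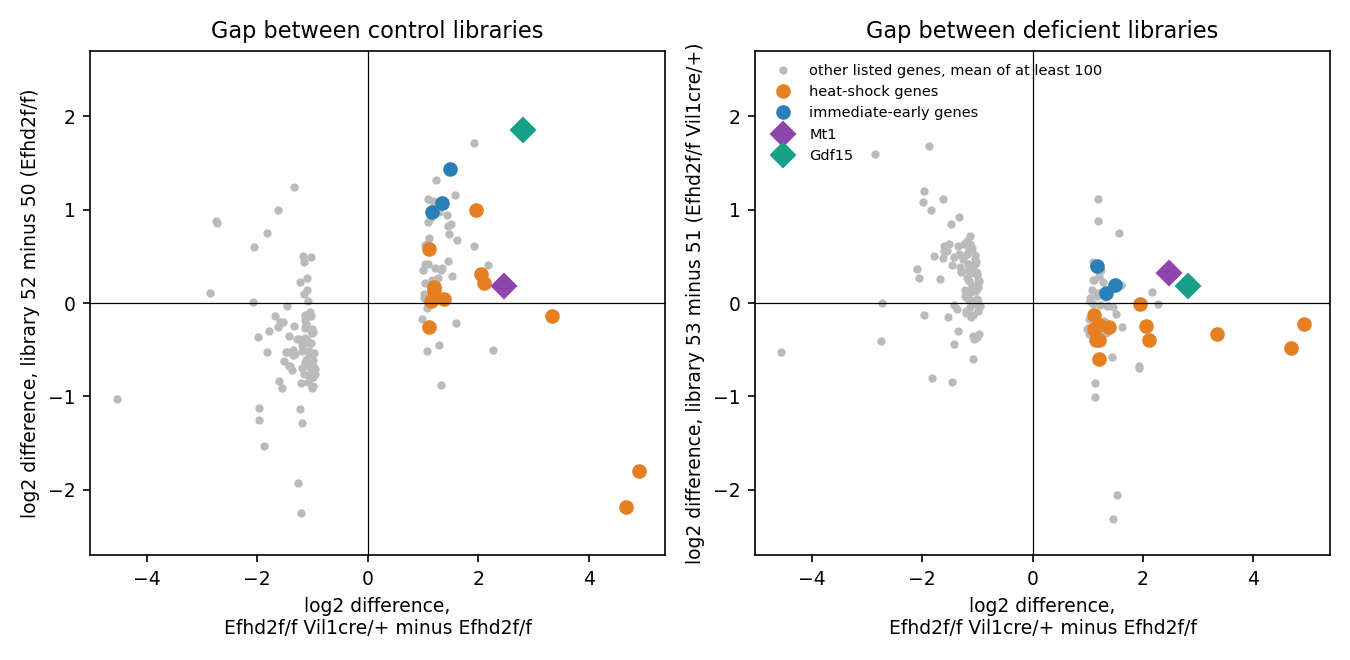
Gap between the libraries of one genotype (vertical axes, log2 units, 52 minus 50 for the controls on the left and 53 minus 51 for the deficient libraries on the right) against the log2 difference between the genotypes (horizontal axes), for the 152 listed genes whose mean reached 100 normalized counts. On the left *Gdf15* lies at 1.85 above the immediate-early genes while *Mt1* lies at 0.18, and on the right both members lie above 0 while all 13 heat-shock genes lie below it. Values are as deposited, and the side of 0 on which a gene lies can change with the scaling.

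The listed genes most like each member were found by the distance between their log2 profiles over the 4 libraries, each centred on its own mean. Such likeness over 4 libraries is a description. Nearest to *Mt1* were *Gm3608* (distance 0.37), *Gm37969* (0.49), *B3gnt7* (0.57), *Dnaja1* (0.58) and *C2cd4b* (0.61), where the median over the other 308 genes was 3.68. *Gm3608* is annotated as a pseudogene, and 2305 stretches of 50 bases of a *Capza1* transcript occur in it, so its count is uncertain. *Dnaja1* was at 6531 and 5522 normalized counts in the deficient libraries and 1296 and 1610 in the controls, levels near those of *Mt1*. Nearest to *Gdf15* were *Cxcl1* (0.48), *Mir23a* (0.79), *Gm43361* (0.85), *9530053A07Rik* (0.86) and *Gm12666* (0.90), all of them counted at low levels. *Cxcl1*, a neutrophil chemokine gene, was at 19.3 and 16.7 in the deficient libraries and 0.966 and 4.28 in the controls. *Mt1* had rank 10 of 308 in nearness to *Gdf15* (distance 1.24), while *Gdf15* had rank 42 in nearness to *Mt1*.

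The day 0 table held 20 genes of chromosome 8, 10 higher and 10 lower in the deficient libraries. The listed genes on either side of *Gdf15* were *Slc18a1*, 1.54 Mb away, with a log2 difference of -1.10, and *Dnajb1*, 13.0 Mb away, at 1.95. Those on either side of *Mt1* were *Gm26532*, 9.97 Mb away, at 1.19, and *Nol3*, 11.1 Mb away, at 1.84. Genes adjacent to *Mt1* (*Mt2* and *Gm39228*) and to *Gdf15* (*Lrrc25* and *Pgpep1*) were not listed.

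Some markers of other cells were listed on day 0. A gene is listed only if it passed the study's thresholds in this comparison, so nothing about cell composition is read from these markers. Of all 309 listed genes, limma called 62.5% lower and 30.4% higher. Of 10 T and NK cell markers, 6 were listed, all with lower means in the deficient libraries. Limma called 5 of them lower (*Xcl1*, *Trac*, *Cd7*, *Nkg7* and *Trdc*). The 6 summed to 1077 and 1277 in the deficient libraries and to 3250 and 1991 in controls 50 and 52. Of 7 enteroendocrine markers, 3 (*Chga*, *Chgb* and *Pyy*) were listed and called lower, with sums of 4522 and 5684 against 12345 and 9502. In bulk samples, fewer cells of a type and less RNA per cell cannot be told apart. Of 6 Paneth cell markers, 3 were listed, with *Lyz1* called lower, *Mptx2* called higher (4653 and 1117 against 711 and 870) and *Defa24* at 0 in all libraries except control 52, where it was at 86.9. Of 6 B and plasma cell markers *Ighd* was called lower, and of 5 red blood cell markers *Alas2* was called higher. None of 11 myeloid markers was listed. The mitochondrially encoded *mt-Co2* and *mt-Co3*, chosen after their values were seen, were also higher, with *mt-Co2* at 44079 and 8861 in libraries 51 and 53 and at 6197 and 8459 in the controls. The part of these markers and mitochondrial transcripts in the values of *Mt1* and *Gdf15* was not tested.

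The day 7 table listed 128 genes, and neither *Mt1* nor *Gdf15* was among them. Their levels after DSS were not analysed here, and their absence says only that neither passed the study's thresholds on that day. Of the 174 other stress genes, 7 were listed on day 7. Limma called 5 of them higher and 2 lower, beside 77.3% and 7.81% of the 128 listed genes. No gene of the metal, heat-shock, p53 or unfolded protein lists was listed. Those called higher were *Hmox1* (log2 difference 2.39) and *Slc7a11* (2.11), which act in heme breakdown and cystine uptake, *Socs3* (2.13), a feedback inhibitor of cytokine signalling, *Inhba* (2.93), a member of the TGF-β superfamily like *Gdf15*, and *Cyp11b1* (3.93), a steroid synthesis gene listed at 15.3 and 13.4 in the deficient libraries and at 0 in both controls. *Arc* (-3.02), an immediate-early gene, and *Pdk4* (-2.05), a kinase gene of fuel selection, were called lower. None of the 174 was listed on both days. The share of all listed genes found on both days was not computed, so nothing is read from this. Of 11 myeloid markers 5 were listed on day 7 and called higher, as were 4 of 5 red blood cell markers, and their part in these values was not tested.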

How the data were processed

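RNA of colonic IECs was sequenced with NEBNext libraries on an Illumina platform. The submitters' processing notes name CASAVA 1.8, fastp, HISAT2 2.0.5, featureCounts 1.5.0-p3 and DESeq2 1.20.0, with the builds GRCm38 and mm10. The signal deposited per library is a normalized count made by the authors, by a scaling the sources used here do not name. At most 61.7% of a column's values became whole under a common step (tolerance 0.02), so whole reads were not recovered and no count model was run. Values under 1e-06 were set to 0 (25 on day 0 and 14 on day 7). The deposited gene length (other unit, bases) was used for levels per kilobase. Columns with the authors' means, fold changes and p-values were not used. Of the 309 genes of day 0, 309 were found in GENCODE M21, 294 with the same coordinates.

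Columns name genotype and day but not the replicate numbers of the labels. Log2(value + 1) was fitted for each day with limma 3.58.1 in R 4.3.3 (lmFit, eBayes), with p-values adjusted by Benjamini-Hochberg within each table. A gene was called at an adjusted p under 0.05 and an absolute log2 difference above 1. The fit was also run on simulated data in which most genes were unchanged. These tables hold only selected genes, so that run does not give the error rates here. Distances, motif counts and plots were made with Python 3.11.15, pandas 2.3.3, numpy 2.4.6 and matplotlib 3.10.9. Members and lists were chosen with earlier results of these data known. Genes named were the members, *Efhd2*, listed genes of the fixed lists (5 of a list with over 10), the 5 nearest genes, neighbours on the chromosome, the 5 largest increases and at most 5 markers of each cell type. Names beyond this rule were chosen after their values were seen. Proteins were not analysed here.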

Additional observations from a re-analysis of the deposited data

How the results depend on the processing

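With 2 libraries per group, a depth that is unknown and tables that hold only selected genes, no setting here tests whether *Mt1* or *Gdf15* differ. Their direction held under every alternative run. The log2 difference of *Mt1* (2.46) was 1.85 with equal sums over the listed genes and 3.58 with a median ratio over them, and that of *Gdf15* (2.82) was 2.21 and 3.92. These scalings moved the median of all listed genes by -0.61 and 1.11. Each library left out in turn gave 2.30 to 2.63 for *Mt1* and 1.89 to 3.74 for *Gdf15*. Pseudocounts of 0.1 and 10, and the ratio of group means (added after seeing the data), moved neither by more than the spread between replicates. Both genes stayed among the 20 largest increases, over genes whose mean reached 100, with either pseudocount and with each library left out. Dropping genes with a mean under 50 could not change this order. As both were chosen for their increase, nothing is read from their staying there. All 21 listed stress genes had both deficient libraries above both controls, so nothing is read from a count of 0 called lower. Stress genes called higher (21) came to 6 with equal sums and to 0 to 18 with a library left out, and limma called 0 lower in any setting, also at an unadjusted p under 0.05. Listed genes called higher (94) came to 30 with equal sums, beside 207 lower, and to 0 to 78 with a library left out. Those called lower (193) came to 120 when genes with a mean under 50 were dropped, which tests fewer genes, and to 0 to 159 with a library left out. The 0 counts arose without library 50, 51 or 53 and not without library 52, and the cause was not tested. In each of these fits the lone library is assumed to vary like the other group. At an unadjusted p under 0.05, 61, 36 and 42 were higher and 101, 75 and 107 lower without library 50, 51 and 53. At that unadjusted threshold the median ratio gave 99 higher and 31 lower, against 96 and 194 for the values as deposited. No paired analysis was possible because the columns of the tables carry no replicate numbers of the labels.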
